A study of Mus musculus with 12 samples.

Results

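The synthesis of prostaglandins, thromboxane, and leukotrienes was examined through 9 genes in mouse hematopoietic stem and progenitor cells with or without knockdown of Rad21, a subunit of the cohesin ring that holds chromatin loops. The 9 genes (Pla2g4a, Ptgs1, Ptgs2, Ptges, Hpgds, Tbxas1, Alox5, Alox5ap, and Ltc4s) were taken from 46078 counted genes. They were chosen by their place in the pathway and because Ptgs2 stood among the strongest decreases in culture. The values of the knockdown in culture thus helped to select Ptgs2 and are given for it as a description, without a test. For the other genes, calls in culture are stated without single p-values. Single-end RNA-seq was available for 12 libraries of C57BL/6 bone marrow cells, in 4 groups of 3.

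All 4 groups started from LSK cells, the lineage-negative, Sca-1+, c-Kit+ fraction of bone marrow, and all were infected with a lentivirus that carried EGFP and either an shRNA against luciferase (shLuci, the control) or an shRNA against Rad21 (shRad21). For the culture groups, cells that were GFP+, CD48-, and Sca-1+ were sorted from LSK cells kept in culture for 3 days after isolation and infection. The in vivo groups were GFP+ LSK cells sorted from mice that had received infected LSK cells, at 3 months after transplantation per the labels, while the study's own text gives a later time. The recipients had been lethally irradiated, several Rad21 shRNAs were made in the study, and the labels do not say which one these libraries carried. The labels do not state whether replicates came from separate mice or cultures, so p-values measure the spread between these libraries, which may be technical.

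Eicosanoids are short-lived lipid mediators made from arachidonic acid, which cytosolic phospholipase A2 (Pla2g4a) cuts from membranes. The cyclooxygenases COX-1 (Ptgs1, present in many resting cells) and COX-2 (Ptgs2, an early gene of inflammation) convert it to prostaglandin H2, which terminal synthases turn into prostaglandin E2 (Ptges), prostaglandin D2 (Hpgds), or thromboxane A2 (Tbxas1). In the other branch, 5-lipoxygenase (Alox5) and its partner FLAP (Alox5ap) make leukotriene A4, which leukotriene C4 synthase (Ltc4s) conjugates with glutathione. In bone marrow, prostaglandin E2 is known to act on stem and progenitor cells through its receptors.

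The libraries held between 15235129 and 29846689 counts, and 3 counts, the limit that a count of 0 allows, corresponded to 0.109 to 0.21 CPM in a library. CPM are counts scaled to the normalised library size. These limits cover counting error only. Rad21 was at 402 ± 18.4 CPM (SD, n = 3) in shLuci and 141 ± 12.8 CPM in shRad21 culture cells, 34.8% of the control by the fit, and at 120 ± 2.58 against 45.2 ± 2.45 CPM in vivo, 37.2% of the control. The 9 LSK markers, including c-Kit, Sca-1, and CD34 transcripts, were present in every group and summed to between 2580 and 4020 CPM. With knockdown, 4 of the 9 were called higher and 2 lower in culture, and 4 higher and 3 lower in vivo. The log2 fold changes in culture were -1.42 for Kit (c-Kit), -1.12 for Flt3, and 1.21 for Slamf1 (CD150). In vivo they were -0.42 for Kit (adjusted p = 0.00659), -1.61 for Flt3 (2.48e-05), and 2.05 for Slamf1 (2.18e-05) by edgeR's quasi-likelihood test. The part of these shifts in the levels of the 9 genes was not tested. Markers of other blood cells moved with the knockdown and stand beside the results that they accompanied. In bulk samples, fewer cells of a type and less RNA per cell cannot be told apart.

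Apart from Ptgs2, which was selected on this contrast and was lower, the knockdown in culture was called (adjusted p under 0.05, edgeR's quasi-likelihood test) for 2 of the other 8 genes, Hpgds and Tbxas1, both higher. Among all 15543 genes tested in culture, 14.2% were called, a share from which nothing is read here. This fit did not pair libraries of the same replicate number. With the replicate number as a block, Ptgs1 was also called higher and Ltc4s lower, beside 20.5% of all genes. In vivo, 8 of the 9 genes held enough counts to be tested and 3 rose, namely Pla2g4a, Ptgs1, and Hpgds, while none fell. The share called among all genes tested in vivo was 11.0%, and 5.65% were called higher. The median log2 fold change of the genes tested was 0.03 in culture and 0.65 in vivo, against -0.0039 and -0.0019 over all genes. The plot of CPM by group shows each library.

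**Figure D1:**
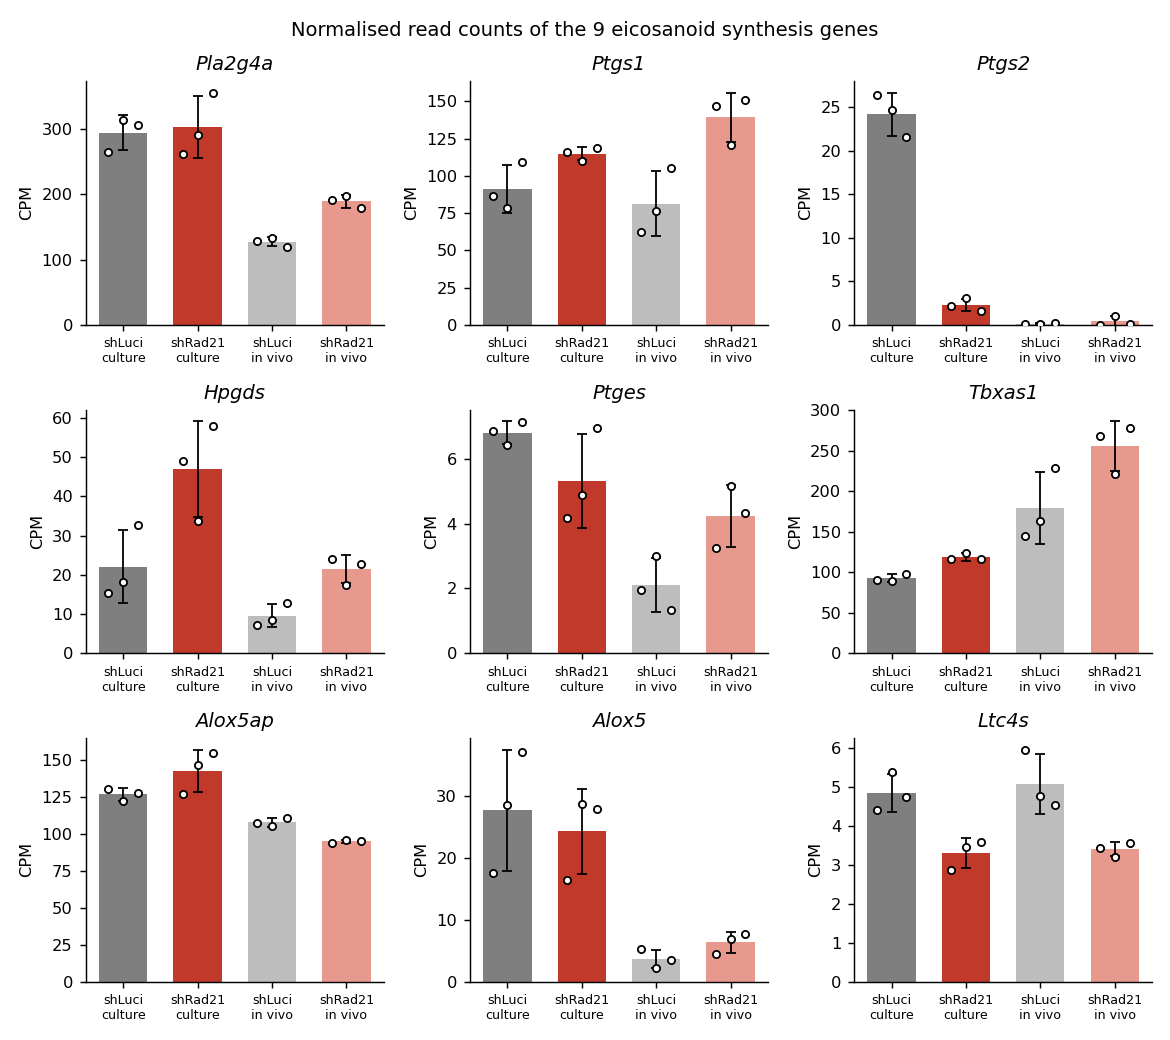
CPM (TMM-normalised, linear axes from 0, a different range in each panel) of the 9 genes in the 4 groups; bars are means, error bars are SD over 3 libraries, and points are libraries 1 to 3 from left to right. Ptgs2 lies between 21.5 and 26.4 CPM in shLuci culture cells and at or below 3.04 CPM in each other library, whereas Pla2g4a, Ptgs1, and Hpgds are higher with shRad21 than with shLuci in vivo, with no overlap.

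Pla2g4a (ENSMUSG00000056220, chr1:149829618-149961290 in GRCm38, minus strand) encodes the phospholipase at the head of the pathway. In culture it stood at 264, 315, and 306 CPM in the shLuci libraries and at 262, 292, and 356 CPM in the shRad21 libraries. These groups overlapped, with a log2 fold change of 0.03 (SE 0.113). In vivo the levels were 129, 134, and 120 CPM in shLuci and 192, 197, and 179 CPM in shRad21 libraries. Each shRad21 library in vivo lay above each shLuci library, and Pla2g4a rose by 0.55 on the log2 scale (SE 0.0747, adjusted p = 0.00154 by edgeR's quasi-likelihood test). The call was kept under all 13 alternatives run for it, with adjusted p of at most 0.00738.

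Ptgs1 (ENSMUSG00000047250, chr2:36230426-36252272, plus strand) encodes COX-1. Its levels in culture were 86.3, 78.3, and 109 CPM with shLuci and 116, 110, and 119 CPM with shRad21, which did not overlap, with a log2 fold change of 0.33 (SE 0.110) that was not called. Ptgs1 was called in culture with the replicate number as a block, and without shLuci replicate 3 (log2 fold change 0.48). In vivo it was at 62.3, 76.5, and 105 CPM with shLuci and at 147, 120, and 151 CPM with shRad21, again without overlap. The in vivo increase was 0.76 on the log2 scale (SE 0.167, adjusted p = 0.0177 by edgeR's quasi-likelihood test). The call was lost without shLuci replicate 2 (adjusted p = 0.0645), shRad21 replicate 1 (0.0607), or shRad21 replicate 3 (0.0778) of the in vivo libraries. Of the exonic length of Ptgs1, 3.81% overlaps Gm43621, a gene on the other strand with 3 to 29 counts per library.

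Ptgs2 (ENSMUSG00000032487, chr1:150100031-150108227, plus strand) encodes COX-2, and no other annotated gene overlaps its exons. The shLuci culture libraries held 377, 482, and 459 counts of Ptgs2, or 26.4, 24.7, and 21.5 CPM. The shRad21 culture libraries held 51, 60, and 45 counts, or 2.12, 3.04, and 1.63 CPM, which is 9.17% of the control by the fit. The log2 fold change of -3.45 (SE 0.203) was the 22nd lowest of 15543 genes, and it belongs to the contrast by which the gene was selected. Just below and above it in that order stood Ccr1, a chemokine receptor, with a log2 fold change of -3.46, and Gm26781 with -3.44. Ptgs2 is known from monocytes and macrophages, and markers of these cells moved with it in culture, where 4 of the 6 tested were called lower and 1, Fcgr1, higher. Csf1r, the receptor for M-CSF, averaged 19.3 CPM with shLuci and 5.48 CPM with shRad21 in culture, Cx3cr1 20.2 and 3.08 CPM, Cd14 2.05 and 0.514 CPM, and Ccr2 1.88 and 0.697 CPM. Lyz2, which made up most of the summed level of the 10 markers (150 to 203 CPM with shLuci and 155 to 168 CPM with shRad21), averaged 134 and 143 CPM, and C1qa was at 0 in all 6 culture libraries. The 9 neutrophil markers summed to 75.5 to 99.5 CPM with shLuci and 35.5 to 44.1 CPM with shRad21. The part of these markers in the Ptgs2 result was not tested. In vivo, Ptgs2 was near the limit of detection in both groups, with 1, 2, and 6 counts in shLuci and 0, 23, and 3 counts in shRad21 libraries. Of the 26 counts in shRad21 cells in vivo, 23 came from replicate 2, and the gene held too few counts to be tested there.

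The window around the Ptgs2 start is shown beside those of Ptgs1, the other cyclooxygenase, and Pla2g4a, the enzyme upstream of both, because these genes act on one chain of substrates and had unlike values in culture. Each is the 250 bases before the RefSeq start on GRCm38.p6, written 5′ to 3′ on the strand of the gene. The coordinates are chr1:150099781-150100030 (plus strand) for Ptgs2, chr2:36230176-36230425 (plus strand) for Ptgs1, and chr1:149961291-149961540 (minus strand) for the upstream one of the Pla2g4a starts. Capitals mark matches to the motifs named in the next paragraph.
Ptgs2: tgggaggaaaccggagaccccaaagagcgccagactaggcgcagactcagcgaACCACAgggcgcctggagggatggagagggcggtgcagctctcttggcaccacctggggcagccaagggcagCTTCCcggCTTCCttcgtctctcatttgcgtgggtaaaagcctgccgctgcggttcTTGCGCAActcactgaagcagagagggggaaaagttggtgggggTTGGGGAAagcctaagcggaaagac
Ptgs1: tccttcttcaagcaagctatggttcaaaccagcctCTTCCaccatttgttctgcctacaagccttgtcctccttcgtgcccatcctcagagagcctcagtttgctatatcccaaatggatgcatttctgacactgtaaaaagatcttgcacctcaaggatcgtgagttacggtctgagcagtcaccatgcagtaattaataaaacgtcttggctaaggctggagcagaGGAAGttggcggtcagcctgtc
Pla2g4a: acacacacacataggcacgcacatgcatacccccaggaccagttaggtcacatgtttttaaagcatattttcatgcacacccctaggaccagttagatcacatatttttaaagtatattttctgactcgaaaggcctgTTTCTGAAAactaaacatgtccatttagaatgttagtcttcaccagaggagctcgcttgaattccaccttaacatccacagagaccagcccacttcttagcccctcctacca

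Motifs were searched on both strands in windows of 300 bases, from 250 before to 50 after each start. The Ptgs2 window held a match to C/EBP (TTNNGNAA) at each of 69 and 25 bases before the start, counting to the first base of the match, as well as 1 RUNX match (TGTGGT) and 2 ETS matches (GGAAG). A CRE core (TGACGT) on the minus strand and an E-box (CACGTG) on the plus strand overlapped at bases 13 to 22 after the start, in the stretch ACGTCACGTG at chr1:150100043-150100052. Neither motif matched in the Ptgs1 window or the Pla2g4a window shown, which held 2 ETS matches and 2 overlapping C/EBP matches, respectively. The window of the other Pla2g4a start, not shown, held ETS, GATA (GATAA), and TATA box (TATAAA) matches. It had no CRE core, E-box, or C/EBP match, and which start these cells used was not tested. Among 32851 windows of the same length, 7.5% held the CRE core, 7.2% the E-box, 40.7% the C/EBP motif, 16.8% the RUNX motif, and 71.4% the ETS motif. The NF-κB consensus, searched by name, matched in 4.5% of all windows and in none of the 3 shown. These matches describe letters in a window, and the absence of a match says only that the letters are not in it.

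Per length of transcript, Ptgs2 supplied 20.6%, 21.1%, and 14.3% of the summed cyclooxygenase level (CPM per kilobase of exon) in the shLuci culture libraries. In shRad21 culture cells its share was 1.52%, 2.29%, and 1.15%, and in vivo it was between 0% and 0.727% in all 6 libraries. Ptgs1 thus made up at least 97.7% of the cyclooxygenase transcripts in each library other than the shLuci culture libraries. The genes whose levels were most like those of Ptgs2 over the 12 libraries, among 17049 compared, were Rpl10 (Pearson r = 0.971), Unc5b (r = 0.97), 4930469K13Rik (r = 0.969), Map3k8 (r = 0.964), and Mmd (r = 0.964). These correlations of log2 CPM describe points that share 4 groups and 2 library kits, and Rpl10 has near-identical copies in the genome whose reads the counting could have split.

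**Figure D2:**
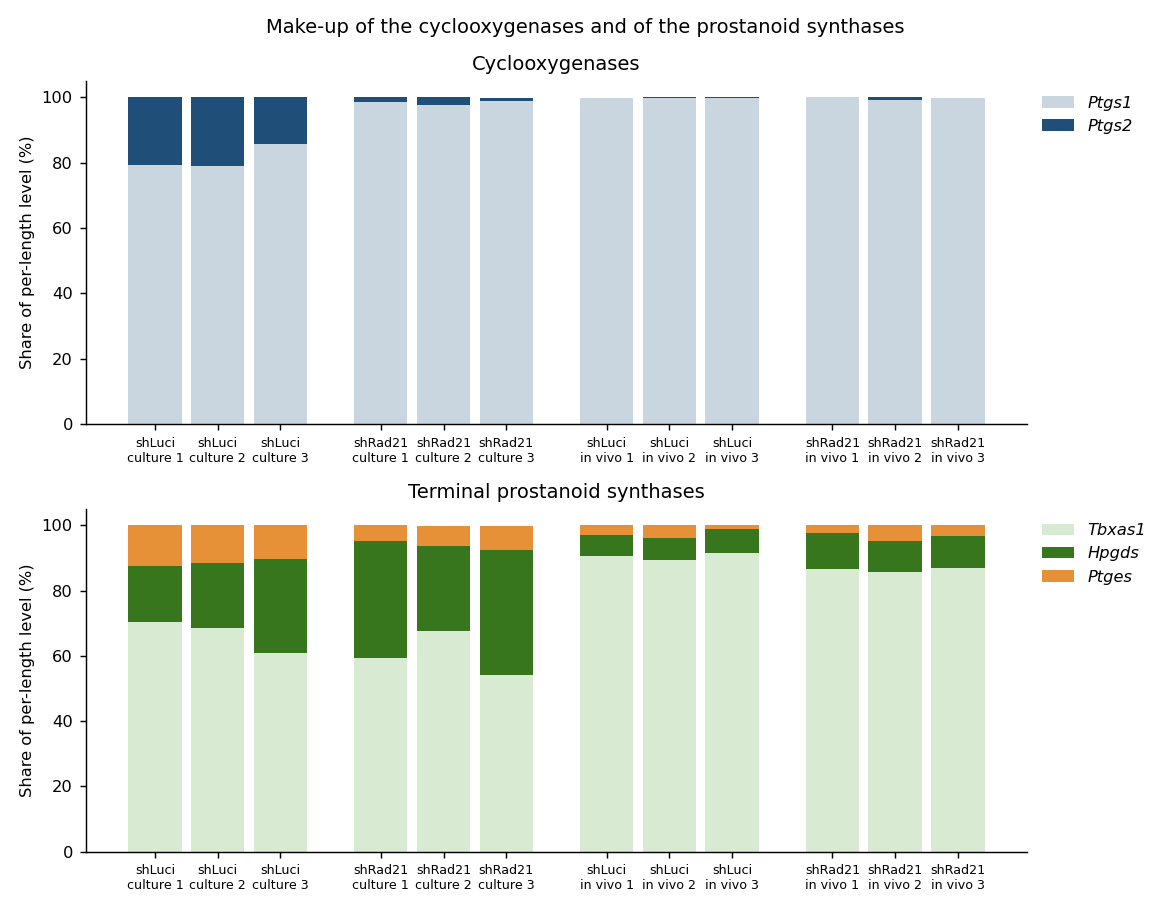
Share in percent of the per-length level (CPM per kilobase) in each of the 12 libraries: Ptgs1 and Ptgs2 among the cyclooxygenases (upper panel), and Tbxas1, Hpgds, and Ptges among the terminal synthases (lower panel). Ptgs2 is visible as 14.3% to 21.1% in the shLuci culture libraries, and Hpgds takes a larger share with shRad21 than with shLuci in vivo (9.53% to 11% against 6.48% to 7.27%).

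Among the terminal synthases, Hpgds was higher upon knockdown in both settings. Hpgds (ENSMUSG00000029919, chr6:65117293-65144908, minus strand) encodes the hematopoietic prostaglandin D2 synthase. In culture its levels were 15.4, 18.2, and 32.7 CPM with shLuci and 49.1, 33.8, and 58.0 CPM with shRad21. The highest control library and the lowest knockdown library were close, and the log2 fold change was 1.07 (SE 0.254). It was no longer called without shLuci replicate 1 (0.88), shLuci replicate 2 (0.95), or shRad21 replicate 3 (0.91) of the culture libraries. In vivo the levels were 7.29, 8.54, and 12.8 CPM with shLuci and 24.1, 17.3, and 22.9 CPM with shRad21. The groups in vivo did not overlap, and Hpgds rose by 1.14 on the log2 scale (SE 0.213, adjusted p = 0.00784 by edgeR's quasi-likelihood test). This call was kept under all 13 alternatives, with adjusted p of at most 0.0411.

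Hpgds is also a gene of mast cells, some of whose markers moved with it. The summed level of 10 mast cell and basophil markers was 110 to 136 CPM in shLuci and 161 to 229 CPM in shRad21 cells in vivo. Cpa3 alone averaged 61.1 CPM with shLuci and 131 CPM with shRad21 in vivo. Of the 9 of these markers tested in vivo, 3 rose and 6 were not called. Cpa3, a mast cell protease, rose by 1.09 on the log2 scale (adjusted p = 0.00576), as did the proteases Cma1 by 2.51 (adjusted p = 0.0248) and Tpsb2 by 3.69 (adjusted p = 0.00984), all by edgeR's quasi-likelihood test. The IgE receptor genes did not move with them in vivo, with log2 fold changes of -0.999 for Ms4a2 (adjusted p = 0.156) and -0.30 for Fcer1a (adjusted p = 0.724). Mcpt8 (-0.63, adjusted p = 0.0774) and Hdc (-0.05, adjusted p = 0.883) were not called in vivo either by edgeR's quasi-likelihood test. The same held for Prss34 (0.26, adjusted p = 0.787) and Il1rl1 (0.90, adjusted p = 0.112). In culture the markers summed to 16.4 to 21.8 CPM with shLuci and 28.9 to 96.5 CPM with shRad21, 2 of 7 tested were called higher and none lower, and Tpsab1 was at 0 in both culture groups. The part of these markers in the Hpgds result was not tested.

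Tbxas1 (ENSMUSG00000029925, chr6:38875404-39084585, plus strand), the thromboxane synthase, was the most abundant per length of the 3 terminal synthases among the 9 genes, in each library. In culture it stood at 90.1, 89.0, and 97.9 CPM with shLuci and at 116, 124, and 116 CPM with shRad21, with no overlap and a log2 fold change of 0.35 (SE 0.0768), which was not called without shRad21 replicate 2 (0.32). In vivo the levels were 144, 163, and 229 CPM with shLuci and 268, 221, and 278 CPM with shRad21. Control replicate 3 lay above knockdown replicate 2, and the log2 fold change of 0.50 (SE 0.153) missed the threshold (adjusted p = 0.07 by edgeR's quasi-likelihood test). Tbxas1 passed it in vivo under 5 of 13 alternatives, namely no filter, at least 10 counts in every library (adjusted p = 0.0482), the replicate block (0.0242), the single model of 12 libraries (0.0287), and without shLuci replicate 3 (log2 fold change 0.71, adjusted p = 0.0065), all with edgeR, and the adjusted p ranged from 3.14e-09 to 0.225.

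The summed level of 8 megakaryocyte and platelet markers, cells known for making thromboxane, was 277 to 344 CPM in shLuci and 646 to 806 CPM in shRad21 cells in vivo. Of these markers, Itga2b averaged 212 and 432 CPM there, and Vwf 15.5 and 140 CPM. The study also describes VWF as raised in myeloid-biased stem cells. Of the 7 tested, 5 rose in vivo, among them Vwf by 3.16 (adjusted p = 8.14e-08), Itga2b by 1.01 (adjusted p = 0.00226), and Gp9 by 0.99 (adjusted p = 0.000773) on the log2 scale by edgeR's quasi-likelihood test. Pf4 (0.86, adjusted p = 0.0621) and Ppbp (1.115, adjusted p = 0.214) were not called in vivo by the same test. In culture the sums were 646 to 772 CPM with shLuci and 725 to 1070 CPM with shRad21, with 4 of 6 markers called higher and 2 lower. Gp6 was at 0 in all 12 libraries. The part of these markers in the levels of Tbxas1 and Ptgs1 was not tested.

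Ptges (ENSMUSG00000050737, chr2:30889471-30929863, minus strand), the inducible prostaglandin E2 synthase, was the least abundant of the 3. In culture its levels were 6.85, 6.41, and 7.13 CPM with shLuci and 4.16, 4.87, and 6.95 CPM with shRad21, which overlapped, with a log2 fold change of -0.35 (SE 0.197). In vivo they were 1.96, 3.01, and 1.35 CPM with shLuci and 3.25, 5.15, and 4.33 CPM with shRad21. The in vivo groups did not overlap, but the log2 fold change of 0.99 (SE 0.327) was not called (adjusted p = 0.0898 by edgeR's quasi-likelihood test). Ptges passed under 4 of 13 alternatives, namely DESeq2 (adjusted p = 0.0499), no filter (0.0143), the single model of 12 libraries (0.0364 by edgeR), and without shLuci replicate 2 (log2 fold change 1.36, adjusted p = 0.0326), with a range of 0.0143 to 0.232. The constitutive synthases Ptges2 and Ptges3 were not called in either setting. Within the per-length sum of Ptges, Hpgds, and Tbxas1, the share of Hpgds was 6.8% ± 0.416 (SD, n = 3) in shLuci and 10.2% ± 0.741 in shRad21 cells in vivo, and that of Tbxas1 was 90.6% ± 1.01 and 86.4% ± 0.529. In culture the share of Hpgds was 21.9% ± 6.11 and 33.3% ± 6.41, with overlap, and that of Ptges was 11.4% ± 1.05 and 6.2% ± 1.29, without overlap.

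None of the 3 genes of the leukotriene branch was called by the main edgeR fit in either experiment. In vivo the unadjusted p was under 0.05 for all 3, and each passed under 1 of 13 alternatives, Alox5 without a filter (adjusted p = 0.026 by edgeR), Alox5ap with DESeq2 (0.0404), and Ltc4s in the single model of 12 libraries (0.0401 by edgeR). Alox5ap (ENSMUSG00000060063, chr5:149264767-149288153, plus strand), which presents arachidonic acid to 5-lipoxygenase, had the highest per-length level of the 9 genes in each group, with means of 66.9 to 101 CPM per kilobase. Its culture levels were 131, 122, and 128 CPM with shLuci and 127, 147, and 155 CPM with shRad21, which overlapped. In vivo they were 107, 105, and 111 CPM with shLuci and 94.0, 96.0, and 95.0 CPM with shRad21. Each shRad21 library lay below each shLuci library in vivo, and the log2 fold change of -0.20 (SE 0.0593) missed the threshold (adjusted p = 0.0588 by edgeR's quasi-likelihood test).

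Alox5 (ENSMUSG00000025701, chr6:116410077-116461178, minus strand) spread widely between replicates. In culture it was at 17.5, 28.5, and 37.0 CPM with shLuci and at 16.4, 28.7, and 27.8 CPM with shRad21, a log2 fold change of -0.21 (SE 0.254). In vivo it was at 5.24, 2.28, and 3.57 CPM with shLuci and at 4.49, 6.92, and 7.70 CPM with shRad21, which overlapped, with a log2 fold change of 0.77 (SE 0.302, adjusted p = 0.152 by edgeR's quasi-likelihood test).

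Ltc4s (ENSMUSG00000020377, chr11:50236461-50238616, minus strand) was lower with shRad21 than with shLuci in all libraries of both experiments, without overlap. It was called in neither by the main edgeR fit, which did not pair libraries. Its culture levels were 4.41, 5.39, and 4.74 CPM with shLuci and 2.87, 3.45, and 3.58 CPM with shRad21, with a log2 fold change of -0.56 (SE 0.181). In vivo they were 5.96, 4.76, and 4.53 CPM with shLuci and 3.44, 3.21, and 3.57 CPM with shRad21, with a log2 fold change of -0.59 (SE 0.195, adjusted p = 0.0875 by edgeR's quasi-likelihood test). Ltc4s was called lower in culture once the replicate number was added as a block. Of the exonic length, 26.4% of Ltc4s overlaps the antisense gene Gm26542 (30 to 114 counts per library) and 13.3% of Alox5ap overlaps the antisense gene Gm19719 (9 to 29 counts). The strand setting of the counting is not given in the sources used here, so reads of these partners could have been assigned to either gene or to none.

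Ptgs2 was selected on the culture contrast and is left out here. Among the other 8 genes, groups that did not overlap in culture were seen for Ptgs1, Hpgds, and Tbxas1 (higher) and for Ltc4s (lower), where 31.9% of all genes tested had such groups. In vivo this held for 6 of the 8 genes tested (Pla2g4a, Ptgs1, Hpgds, and Ptges higher, Alox5ap and Ltc4s lower), against 28.3% of all genes tested. The plot of log2 fold changes sets both experiments side by side.

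**Figure D3:**
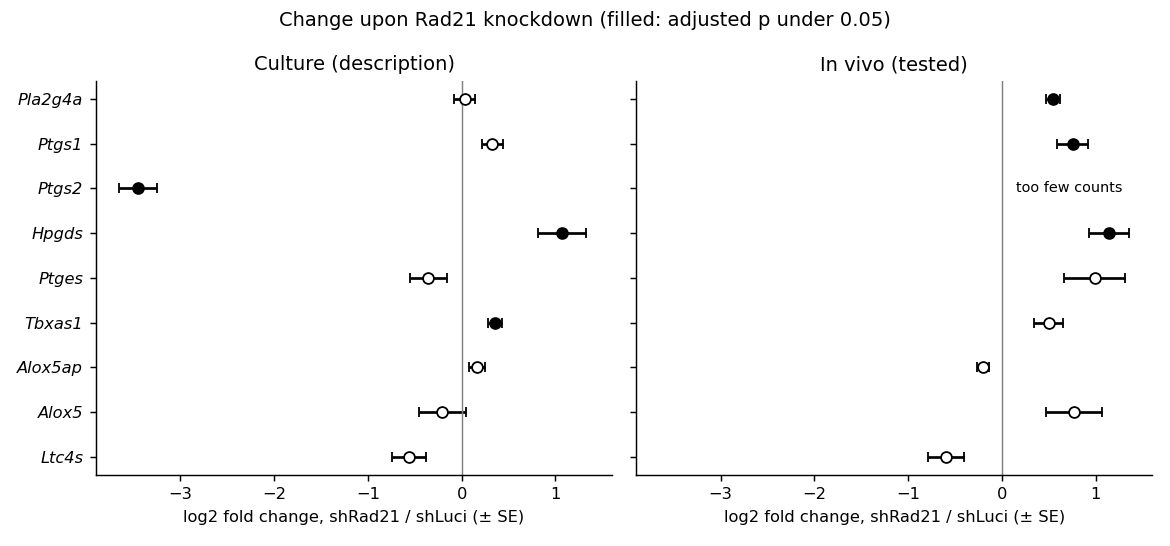
Log2 fold change of shRad21 over shLuci cells with its SE for each of the 9 genes, in culture (left) and in vivo (right), on the same axis; filled points have an adjusted p under 0.05 in edgeR's quasi-likelihood test. Ptgs2 is at -3.45 in culture and has too few counts in vivo, and Hpgds is at 1.07 and 1.14. Ptgs2 was selected on the culture contrast, so its filled point there is a description and no test.

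To see whether the knockdown acted unequally in the settings, its effect in vivo was subtracted from its effect in culture in a model of all 12 libraries. Since this difference contains the contrast that was used to select Ptgs2, no test of it is given for Ptgs2. For the other genes, calls are stated. The largest difference was that of Ptgs2, -4.92 on the log2 scale (SE 1.03), followed by Ptges with -1.34 (SE 0.390) and Alox5 with -0.95 (SE 0.439). Hpgds, Tbxas1, and Ltc4s had differences of -0.06 (SE 0.381), -0.14 (SE 0.191), and 0.04 (SE 0.258). None of the 8 genes other than Ptgs2 had a difference called by the main edgeR fit, where 4.67% of all genes tested were called. Among these 8, the unadjusted p was under 0.05 for 4 (Pla2g4a, Ptges, Alox5, and Alox5ap), and DESeq2 called 3 (Pla2g4a, Ptges, and Alox5ap). Without shRad21 replicate 2 in vivo, which held 23 of the counts, the Ptgs2 difference was -2.52 (SE 1.31). Since Ptgs2 was near the limit of detection in vivo, a fall there could not have been seen. Differences passed the threshold without 1 library for Ptges (-1.70 without shLuci replicate 2 in vivo), Alox5ap (0.46 without shRad21 replicate 1 in culture), and Pla2g4a (-0.58 without shLuci replicate 1 and -0.64 without shRad21 replicate 3 in culture).

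The control cells were compared between culture and in vivo. The setting cannot be told apart from the library kit (TruSeq RNA v2 in culture, SMART-Seq v4 with Nextera XT in vivo), the sorted population, or the sequencing lane, and 74.2% of all genes tested differed, with 37.1% higher and 37.1% lower in culture. Of the 8 genes other than Ptgs2, 5 were higher in culture, 1 was lower, and 2 were not called. Ptgs2 held 1318 counts in the 3 shLuci culture libraries and 9 counts in the 3 shLuci in vivo libraries, a ratio of CPM of 176 (95% exact interval for counting error 92.2 to 385). Because the shLuci culture libraries had a part in the choice of Ptgs2, no test is given for it. Alox5 was higher in culture by 2.88 on the log2 scale (adjusted p = 1.32e-06), Ptges by 1.67 (8.73e-05), Hpgds by 1.19 (0.0014), and Pla2g4a by 1.18 (7.44e-08), all by edgeR's quasi-likelihood test.

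Tbxas1 was lower in culture, by -0.98 on the log2 scale (adjusted p = 1.25e-05 by the same edgeR test). Alox5ap was higher by 0.21 (adjusted p = 0.019), a call that was lost with upper-quartile scaling (adjusted p = 0.273), with scaling by library size only (0.683), and without shLuci replicate 1 in vivo (0.0524). Ptgs1 and Ltc4s had log2 differences of 0.14 (adjusted p = 0.446) and -0.09 (adjusted p = 0.658) by edgeR's quasi-likelihood test, and Ptgs1 passed at 0.37 without shLuci replicate 3 in vivo (adjusted p = 0.0324). Per length, the order of the 9 genes in shLuci culture cells was Alox5ap, Pla2g4a, Ptgs1, Tbxas1, Alox5, Ptgs2, Ltc4s, Hpgds, and Ptges. Those from Alox5 to Hpgds could not be separated from their neighbours, since their ranges overlapped. In shLuci cells in vivo, Ptgs1, Pla2g4a, and Tbxas1 followed Alox5ap with overlapping ranges at means of 19.6 to 20.9 CPM per kilobase, and Ptgs2 was last.

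The rest of the pathway was described with 65 genes for other phospholipases, other synthases and lipoxygenases, inactivation and transport, receptors, and regulators. This list was drawn up with earlier results of these data known, so its counts are a description and no excess over all genes is read from them. In culture, 42 were tested, of which 4 were called higher and 11 lower, where 14.2% of all genes were called. In vivo, 44 were tested, of which 2 rose and 2 fell, against 11.0% of all genes. The median log2 fold change of the genes tested was -0.13 in culture and -0.01 in vivo. The difference between the settings was called for 2 higher and 4 lower of 45 tested, where 4.67% of all genes were called. Pla2g6 was among the lower ones (-0.61, SE 0.153), and the others are named below.

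Of the 16 receptors listed, 10 were tested in each experiment. Ptger2, the EP2 receptor for prostaglandin E2, stood at 3.71, 5.90, and 3.38 CPM in shLuci and at 0.0832, 0.609, and 0.362 CPM in shRad21 culture libraries, a log2 fold change of -3.66 (SE 0.433). In vivo it was at 11.9, 12.2, and 12.5 CPM with shLuci and at 0.824, 1.36, and 2 CPM with shRad21. The groups lay far apart in both experiments, and in vivo Ptger2 fell by 3.15 on the log2 scale (SE 0.27, adjusted p = 0.000142 by edgeR's quasi-likelihood test). Ptger3, the EP3 receptor, fell in vivo by 0.38 on the log2 scale (SE 0.0949, adjusted p = 0.0301 by the same test), a call kept under 9 of 13 alternatives and lost without any 1 of shLuci replicates 2 and 3 and shRad21 replicates 2 and 3 (Ptger3 -0.31 to -0.39). Ptger4, the EP4 receptor, had log2 fold changes of 0.13 (SE 0.113) in culture and 0.07 (SE 0.0735, adjusted p = 0.66 by edgeR) in vivo.

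Receptors for other eicosanoids were called lower in culture for prostacyclin (Ptgir, -1.11, SE 0.125), leukotriene B4 (Ltb4r1, -1.01, SE 0.302), and cysteinyl leukotrienes (Cysltr1, -1.09, SE 0.235), on the log2 scale. The Ltb4r1 call was lost in 5 of 6 fits that left out a culture library (-0.72 to -1.12). In vivo none of these was called, with log2 fold changes of -0.82 for Ptgir (adjusted p = 0.0776), -0.30 for Ltb4r1 (adjusted p = 0.339), and 0.57 for Cysltr1 (adjusted p = 0.693) by edgeR's quasi-likelihood test. The differences between the settings were -0.27 (SE 0.281), -0.71 (SE 0.358), and -1.64 (SE 0.724) and were not called. Ltb4r1 and Cysltr1 are known from myeloid cells, whose markers are given beside them. In culture, the monocyte and macrophage markers Csf1r, Cx3cr1, Cd14, and Ccr2 and the sum of neutrophil markers were lower with shRad21, as given beside Ptgs2, whereas Lyz2 was at 106% of its control. In vivo the 10 monocyte and macrophage markers summed to 503 to 559 CPM with shLuci and 482 to 566 CPM with shRad21, again mostly Lyz2 (means of 442 and 482 CPM), and 3 of 9 tested fell, among them Csf1r by 1.28 (adjusted p = 0.0096) and Ccr2 by 1.05 (adjusted p = 0.013) on the log2 scale by edgeR's quasi-likelihood test. The part of these markers in the receptor levels was not tested.

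**Figure D4:**
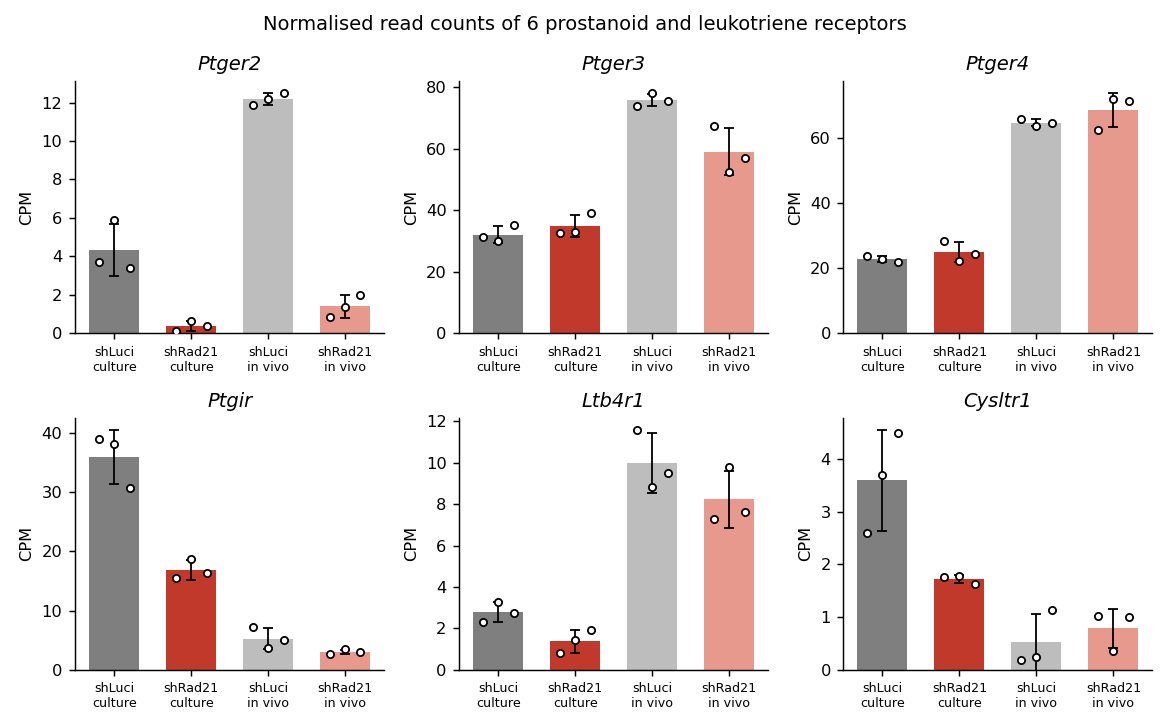
CPM (linear axes from 0) of 6 receptors for prostaglandin E2 (Ptger2, Ptger3, Ptger4), prostacyclin (Ptgir), leukotriene B4 (Ltb4r1), and cysteinyl leukotrienes (Cysltr1) in the 4 groups; bars are means, error bars are SD over 3 libraries, and points are libraries. Ptger2 is lower with shRad21 than with shLuci without overlap, at 11.9 to 12.5 against 0.824 to 2 CPM in vivo.

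Among the other enzymes, Alox12, the platelet 12-lipoxygenase, held 2, 1, and 3 counts in shLuci and 30, 22, and 21 counts in shRad21 libraries in vivo. It rose there by 3.54 on the log2 scale (SE 0.531, adjusted p = 0.00262 by edgeR's quasi-likelihood test), beside the platelet markers given above. In culture its levels were 0.909 to 1.69 CPM with shLuci and 0.998 to 1.56 CPM with shRad21. The Alox12 difference between the settings was -3.62 (SE 0.585), called by edgeR and kept under 17 of 17 alternatives. Mgll, the monoacylglycerol lipase that releases arachidonic acid from an endocannabinoid, rose in vivo by 1.90 on the log2 scale (SE 0.512, adjusted p = 0.0424 by the same test). The Mgll call was kept under 7 of 12 alternatives. Its losses included, but were not limited to, the fits without shLuci replicate 1 or 2 or shRad21 replicate 1 or 3 (1.45 to 1.96). For Mgll the difference between the settings was -2.79 (SE 0.736), called by edgeR and kept under 9 of 17 alternatives. Lta4h, which makes leukotriene B4, had log2 fold changes of -0.02 in culture and -0.08 in vivo (adjusted p = 0.588 by edgeR), and Ptgds, the other prostaglandin D2 synthase, was called in neither experiment.

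Enzymes that process cysteinyl leukotrienes further were called in culture in both directions. Dpep2, a dipeptidase, had a log2 fold change of 1.66 (SE 0.31), whereas the gamma-glutamyl transferases Ggt1 and Ggt5 had -1.13 (SE 0.341) and -0.70 (SE 0.108). The reductases Ptgr1 and Ptgr2, which inactivate prostaglandins, were called higher with 0.42 (SE 0.126) and 0.31 (SE 0.0851), and the exporter Abcc4 lower with -0.33 (SE 0.074). Of the 5 regulators, 3 were called lower in culture, namely Zfp36 (-1.08, SE 0.186), a protein that destabilises mRNAs including that of Ptgs2, the kinase Mapkapk2 (-0.70, SE 0.117), and Cotl1 (-0.33, SE 0.0811), a partner of 5-lipoxygenase. Anxa1, known as an inhibitor of phospholipase A2 activity, was called higher (0.60, SE 0.115). Faah, a lipid amidase, was called lower with -0.56 (SE 0.115). Each call was lost in fits that left out a culture library for Ggt1 (5 of 6 fits), Ptgr1 and Cotl1 (4 each), Ptgr2 (3), and Abcc4 (2). In vivo none of these 11 genes was called. The log2 fold changes there were -0.32 for Cotl1 (SE 0.184), -0.29 for Mapkapk2 (SE 0.0842), and -0.29 for Ggt5 (SE 0.0986). They were 0.09 for Zfp36, -0.12 for Anxa1, -0.25 for Ptgr1, -0.02 for Faah, 0.14 for Abcc4, and 0.17 for Ptgr2. Ggt1 had 1.26 (SE 0.504) and Dpep2 had 0.61 (SE 0.331) in vivo. The difference between the settings was called by edgeR for Zfp36 (-1.165, SE 0.273), Anxa1 (0.73, SE 0.143), and Ptgr1 (0.69, SE 0.186). Those calls were kept under 11, 18, and 7 of 18 alternatives. No other difference among the 11 was called. These ranged from -2.37 for Ggt1 (SE 0.65) to 1.05 for Dpep2 (SE 0.469), with -0.003 for Cotl1 (SE 0.189).

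Between control cells in culture and in vivo, 37 of the 45 other pathway genes tested were called, 15 higher and 22 lower in culture, again beside the 74.2% of all genes. Hpgd, the enzyme that inactivates prostaglandin E2, had 0 counts in all 6 culture libraries and 30, 28, and 16 counts in shLuci libraries in vivo, which was at least 6.7-fold higher in vivo when a culture library is set to its limit of 3 counts. The uptake carrier Slco2a1 was lower in culture by -3.60 on the log2 scale (adjusted p = 3.7e-07 by edgeR's quasi-likelihood test). The receptors Ptger2 (-1.52, adjusted p = 0.000667), Ptger3 (-1.27, adjusted p = 5.15e-08), and Ptger4 (-1.54, adjusted p = 1.88e-09) were lower in culture as well, whereas Ptgir was higher by 2.75 (adjusted p = 8.53e-09) and Cysltr1 by 2.75 (adjusted p = 0.000215), by the same edgeR test.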

How the data were processed

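Single-end RNA-seq of 12 libraries (4 groups of 3) was used, each experiment on its own lane. Per the labels and methods, the authors processed reads with bcl2fastq 1.8.4, FastQC 0.11.3, SortMeRNA, and Prinseq, mapped them to GRCm38 with TopHat2 2.0.11, and counted them with HTSeq 0.6.1. The annotation release and the strand setting are not given in the sources used here. The deposited values are raw counts per gene without normalization. The authors also used DESeq2 1.16.1, whose results were not used here.

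Groups and replicate numbers were taken from the titles. Members were found by gene identifier in GENCODE M21, where all 9 matched. The members, gene lists, and motifs were chosen with earlier results of these data known. Named were the 9 members, pathway genes called in at least 1 comparison or needed to explain a member, the 5 genes most correlated with Ptgs2 (log2 CPM, prior count 2), Rad21, and markers beside a result.

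Counts were TMM-normalised and filtered with filterByExpr (at least 10 counts at the median depth, 15 in total) in edgeR 4.0.16 (R 4.3.3). The quasi-likelihood test was two-sided, with Benjamini-Hochberg adjustment over all genes tested and a threshold of 0.05. The knockdown was fitted on the 6 libraries of each experiment, and the other comparisons on all 12. Alternatives were DESeq2 1.42.0, other scalings and filters, a replicate block, a single model, and each library left out. The code was tested on simulated data. CPM per kilobase used merged exon length.

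Counts of replicate libraries differed by a chi-square of 6.16 to 22.6 per degree of freedom, well over the value of sampling noise, so no library was a duplicate. Same-numbered libraries deviated together in culture (r of 0.17 to 0.217 for all 3 pairs). The numbers may therefore pair the libraries there, as a reading of the data and not of the labels. The main culture fit did not use this pairing, which entered only through the replicate block. In vivo r was 0.0333 to 0.0576 for same-numbered pairs and -0.0778 to 0.0241 for the others. These values are small and do not settle whether the numbers pair the libraries there. Starts and promoter sequences were from RefSeq (GRCm38.p6), and no entry was used for Alox5ap.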

Additional observations from a re-analysis of the deposited data

Results flagged for a closer look

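In the model of 12 libraries, the interaction term of Ptgs2, its knockdown effect in culture minus in vivo, was -4.92 on the log2 scale (SE 1.03). It contains the contrast by which Ptgs2 was selected and is therefore a description. It rested on shRad21 replicate 2 in vivo, which held 23 of the 26 counts of its group, and was -2.52 (SE 1.31) without that library. Ptgs2 was near the limit of detection in vivo, so a fall there could not have been seen. The other 8 genes had no difference called by the main edgeR fit, while DESeq2 called 3 of them.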

How the results depend on the processing

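The counts for culture, for the control cells, and for the difference between settings include Ptgs2 where it was tested, and its part in them is a description. The count of genes called in culture (3) was 5 with the replicate block (3 higher, 2 lower) and 2 to 4 with a library left out. In vivo the count of 3 was 5 with DESeq2, 6 without a filter, and 6 in the single model of 12 libraries, and 2 to 4 with a library left out. The replicate block changed it by less than 1.5 times there. For the control cells, called 7 times, it was 6 to 8 with a library left out, and no paired fit was made across experiments. For the difference between settings the count was 1, and it was 4 with DESeq2, 2 with upper-quartile scaling, and 2 with library size only. It was 5 without a filter, 3 with at least 10 counts in every library, 3 with the replicate block, and 0 to 2 with a library left out. Over all genes the calls moved as well, in culture from 2213 to 3186 of 15543 with the replicate block, and in vivo from 1749 of 15938 to 2259 with DESeq2, 2829 of 31506 without a filter, and 2086 of 17050 in the single model. For the difference between settings they moved from 796 of 17050 to 1294 with DESeq2, 1409 of 32923 without a filter, and 991 with the replicate block. The causes were not tested. Some values near 0 changed sign. With a library left out, Alox5 in culture ranged from -0.4381 to 0.05697 (0.02649 without shRad21 replicate 1), Pla2g4a in culture from -0.08488 to 0.1394 (-0.03809 without shLuci replicate 1), Ltc4s in control cells from -0.1693 to 0.02923, and Ptgs1 in control cells from -0.0255 to 0.3658, and was -0.03655 with library size only. For the difference between settings, the ranges were -0.3329 to 0.3346 for Hpgds, -0.3506 to 0.003463 for Tbxas1, and -0.07813 to 0.1401 for Ltc4s. Of the alternatives for single genes of the 9, 469 kept direction and side of the threshold, 36 passed it anew, 12 lost it, and 17 reversed. The count of other pathway genes called in vivo, 4, was 8 with DESeq2, 11 without a filter, and 2 without shRad21 replicate 3. With 3 libraries per group and few counts, Ptgs2 in vivo could not be tested at this depth.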
